A study of Mus musculus with 6 samples.

Results

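Aminoacyl-tRNA synthetases are the enzymes that load each amino acid onto its tRNA before protein synthesis. The 36 genes described here are the members of a given list of symbols, 20 for cytosolic and 16 for mitochondrial enzymes, matched by symbol among the 54146 genes of the count tables. The rule uses symbols alone, although the list was drawn up with earlier results of these data known. All 36 were found, and all 36 passed the filter on low counts that left 17308 genes for testing. Gene counts per library lay between 148 and 20010 for these members.

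The counts come from poly A+ RNA-seq of whole mouse kidney, with 3 libraries from mice labelled KspCre Tfam f/f and 3 labelled Tfam f/f. All animals were of the B6C3F1/J strain at postnatal day 84, and both groups carry loxP-flanked (f/f) alleles of Tfam, the mitochondrial transcription factor A gene, whose protein also packages the mitochondrial genome. In the first of these groups Cre is driven by the promoter of Ksp-cadherin, a gene of kidney tubule epithelium, so that other kidney cells are not the target of the deletion. Summed over genes, the KspCre Tfam f/f-labelled libraries held 30348281 to 48899266 counts and the Tfam f/f-labelled ones 19024208 to 34821537. The labels name separate samples and do not say that each is a separate animal, so p-values measure the spread between these libraries.

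Tfam itself went against the labels. Its level in normalized CPM, the counts scaled to a common library size with TMM factors, was 63.1, 63.5 and 61.4 in the KspCre Tfam f/f-labelled libraries, against 30.3, 33.6 and 23.2 in the Tfam f/f-labelled ones. The groups did not overlap, and the log2 fold change was 1.11 (SE 0.14, edgeR adjusted p = 0.00107). The 13 mitochondrially encoded mRNAs took 10.98% to 11.05% of counts in the KspCre Tfam f/f-labelled libraries and 2.39% to 5.67% in the Tfam f/f-labelled ones. Every direction below is therefore a direction between libraries as labelled, and whether the labels match the genotypes was not tested. Fold changes are KspCre Tfam f/f-labelled libraries over Tfam f/f-labelled libraries, so a negative log2 value means a lower level in the first. Adjusted p is Benjamini-Hochberg over all genes tested with edgeR's quasi-likelihood test, and a gene is called at adjusted p below 0.05.

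Protein synthesis runs in the cytosol and, separately, inside mitochondria, and most amino acids have a synthetase gene for each place. Both kinds are nuclear genes, and the mitochondrial enzymes are imported. Gars and Kars are exceptions, since each encodes the cytosolic and the mitochondrial enzyme from a single gene. Several cytosolic synthetase genes are known targets of ATF4, a transcription factor whose translation increases when the initiation factor eIF2 is phosphorylated, for example after uncharged tRNA activates the kinase GCN2. ATF4 binds DNA with C/EBP proteins at a composite sequence, the C/EBP-ATF response element. Kidney tubule cells are rich in mitochondria, which supply the energy for salt transport.

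The start-site windows of the synthetase genes were searched for that element and for 2 other motifs, and its matches are shown because it differed most between the enzyme classes. Windows of 300 bases, 250 of them before the start site, were available in RefSeq's GRCm38.p6 table for 27 of the 36 members, 13 cytosolic and 14 mitochondrial, with 15 mitochondrial windows because Aars2 has 2. No window was read for Cars, Hars, Lars, Nars, Rars, Vars, Wars, Hars2 and Pars2. The core TGATGNAA, searched on both strands, was present in 5 of the 13 cytosolic windows and in 0 of the 15 mitochondrial ones. It was present in 3.97% of all 32851 windows of the table. A match of each of the 5 genes is shown 5′ to 3′ on the gene's strand, with 11 flanking bases on either side and the core, or its reverse complement, in capitals.
Aars: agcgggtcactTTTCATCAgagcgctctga
Gars: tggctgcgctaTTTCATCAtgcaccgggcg
Iars: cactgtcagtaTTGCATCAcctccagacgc
Tars: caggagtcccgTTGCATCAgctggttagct
Yars: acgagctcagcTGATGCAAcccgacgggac

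The Aars stretch lies on the plus strand at chr8:111033840-111033869, with the core 9 bases after the start site. Aars has another match, not shown, 112 bases before its start site. The Gars stretch is at chr6:55037960-55037989, plus strand, 30 bases before the start site. The Iars stretch is at chr13:49682126-49682155, plus strand, 7 bases after it. For Tars the position is chr15:11399655-11399684, minus strand, 15 bases before, and for Yars chr4:129189895-129189924, plus strand, 3 bases after. With only the bases before the start site read, 3 cytosolic windows and 0 mitochondrial ones kept the core, against 3.45% of all windows. A match is a description of the sequence and was not tested as a binding site. The core of the factor NRF1, which is known from nuclear genes of mitochondrial proteins, was in 3 cytosolic and 2 mitochondrial windows and in 4.603% of all windows. The ETS core CCGGAAG, recognised by GABP, was in 5 cytosolic and 4 mitochondrial windows and in 8.86% of all windows. Both of these were searched on both strands as well, and matches of different motifs shared a base in 0 cases.

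Most cytosolic enzymes were lower in the KspCre Tfam f/f-labelled libraries. Of the 20 genes, 14 were called lower, 2 higher and 4 were not called, where 46.2% of all genes tested were called, 24.9% lower and 21.3% higher. Those shares stand for 4310 genes lower and 3690 higher, a split that total counts without scaling factors moved to 8519 and 1680. The cytosolic enzymes' median log2 fold change was -0.76 beside -0.03 over all genes tested, and single values ran between -1.81 and 0.42. In 17 of the 20 genes every KspCre Tfam f/f-labelled library was below every Tfam f/f-labelled library, an arrangement seen in 32.1% of all genes tested. At least 2-fold lower and called were 7 of the 20, against 13.2% of all genes tested. Because the tissue is bulk, fewer cells of a type and less RNA per cell cannot be told apart in any of these values.

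**Figure D1:**
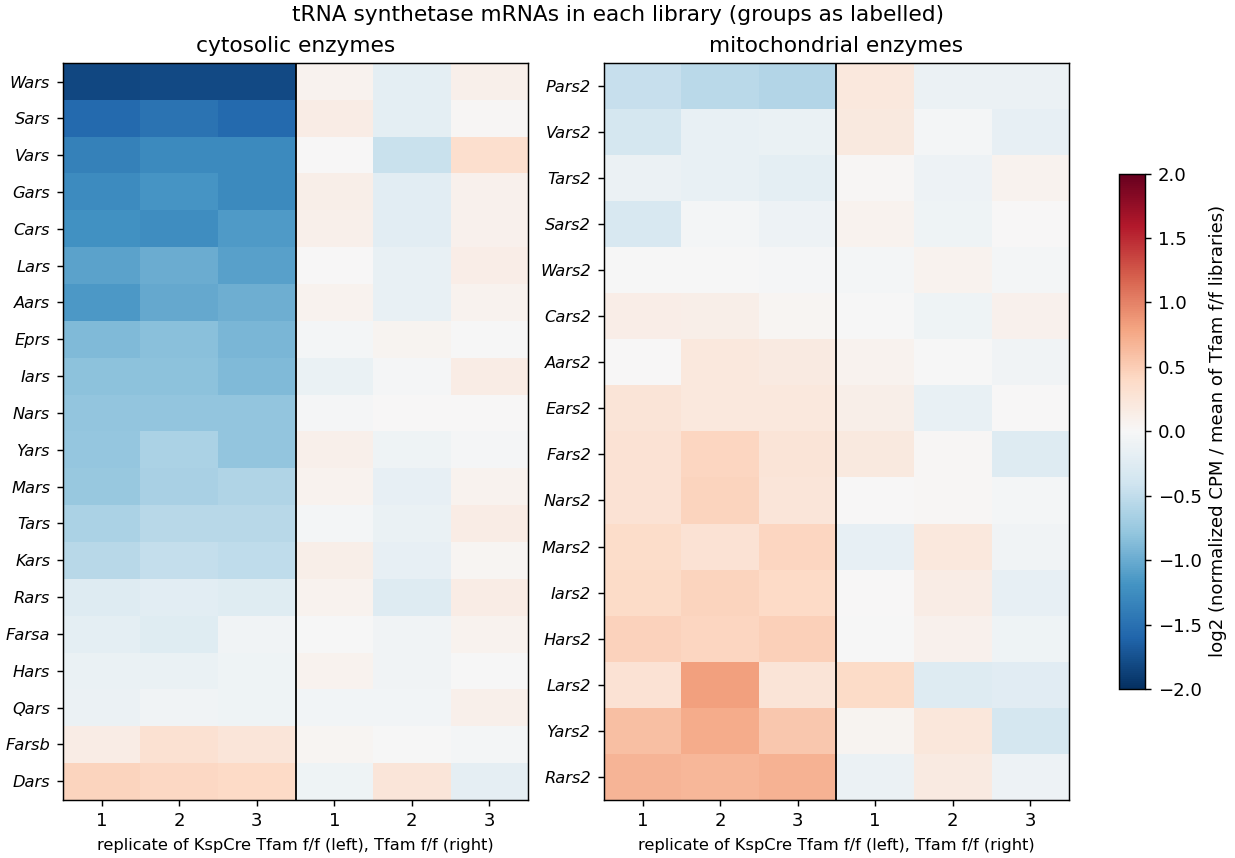
Normalized CPM of the 36 synthetase genes in each of the 6 libraries, with KspCre Tfam f/f-labelled libraries to the left of the Tfam f/f-labelled ones. Colour gives the log2 ratio to the gene's mean over the Tfam f/f-labelled libraries alone. Most cytosolic genes have lower values in all 3 KspCre Tfam f/f-labelled libraries, while Dars, Farsb and several mitochondrial genes have higher ones; with total counts in place of scaling factors Dars and Farsb turn to -0.0036 and -0.19 on the log2 scale.

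Wars, the tryptophanyl-tRNA synthetase, differed most. Its level was 34.5, 34.9 and 34.7 CPM in the KspCre Tfam f/f-labelled libraries and 128, 107 and 131 CPM in the Tfam f/f-labelled ones. The gap between the groups was wider than the spread inside either, with means of 34.7 ± 0.205 CPM in the KspCre Tfam f/f-labelled libraries and 122 ± 13.1 CPM in the Tfam f/f-labelled ones (SD, n = 3 each). The fold was 3.51 lower (log2 -1.81, SE 0.11, edgeR adjusted p = 6.44e-05). Wars (ENSMUSG00000021266.16) lies on chromosome 12 at 108860030 to 108894174, minus strand, in mm10. It is also a known interferon gamma target, and 5 of 12 tested genes of a list of other such targets were called lower and 7 were not called, against 24.9% of all genes tested called lower. The list's summed level was 104 to 126 CPM in the KspCre Tfam f/f-labelled libraries and 136 to 296 CPM in the Tfam f/f-labelled ones. Among its members, Tap1, a peptide transporter of antigen presentation, was 2.41-fold lower (adjusted p = 0.00544). Psmb9, an immunoproteasome subunit, was 2.27-fold lower (adjusted p = 0.00748), and Irf1, a transcription factor, averaged 16.5 ± 1.08 CPM in the KspCre Tfam f/f-labelled libraries and 33.1 ± 8.90 CPM in the Tfam f/f-labelled ones (adjusted p = 0.00557). The part of interferon genes in the Wars values was not tested.

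Sars, which charges serine tRNA and whose product also makes the precursor of selenocysteine tRNA, had 118, 125 and 118 CPM in the KspCre Tfam f/f-labelled libraries, against 386, 302 and 354 CPM in the Tfam f/f-labelled ones. The groups did not overlap. The level was 2.88-fold lower (log2 -1.53, SE 0.14, adjusted p = 0.000308). Cars, the cysteinyl enzyme, had 20.4, 19.9 and 21.4 CPM in the KspCre Tfam f/f-labelled libraries, against 50.6, 40.6 and 49.8 CPM in the Tfam f/f-labelled ones, 2.29-fold lower (log2 -1.19, SE 0.11, adjusted p = 0.000338). Its groups did not overlap either. Sars lies at 108424865 to 108445209 on chromosome 3 and Cars at 143557230 to 143600090 on chromosome 7, both on the minus strand.

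Gars, the glycyl enzyme of both cytosol and mitochondria, had 68.9, 72.8 and 68.4 CPM in the KspCre Tfam f/f-labelled libraries and 179, 142 and 175 CPM in the Tfam f/f-labelled ones. It was 2.36-fold lower (log2 -1.24, SE 0.12, adjusted p = 0.000386). Kars, the lysyl enzyme of both compartments, had a smaller fold. Its level was 72.2, 75.9 and 73.9 CPM in the KspCre Tfam f/f-labelled libraries and 114, 94.2 and 108 CPM in the Tfam f/f-labelled ones, 1.43-fold lower (log2 -0.51, adjusted p = 0.00629). Both dual enzymes therefore lay on the side of the cytosolic majority, with no overlap of the groups.

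Lars, the leucyl enzyme, had 46.5, 48.8 and 46.1 CPM in the KspCre Tfam f/f-labelled libraries and 98.0, 87.6 and 107 CPM in the Tfam f/f-labelled ones. Aars, the alanyl enzyme, had 99.0, 109 and 112 CPM in the KspCre Tfam f/f-labelled libraries and 230.05, 198 and 232 CPM in the Tfam f/f-labelled ones. Neither gene's groups overlapped, and the levels were 2.07-fold (log2 -1.05, SE 0.10, adjusted p = 0.00038) and 2.06-fold lower (log2 -1.05, SE 0.12, adjusted p = 0.000788). Vars, the valyl enzyme, was 2.46-fold lower but spread most among the Tfam f/f-labelled libraries, with 39.1, 41.2 and 41.2 CPM in the KspCre Tfam f/f-labelled ones and 99.8, 72.8 and 126 CPM in the Tfam f/f-labelled ones (log2 -1.30, SE 0.19, adjusted p = 0.00183). Its highest library labelled Tfam f/f was 1.73 times its lowest, the widest such range among the 20 cytosolic genes.

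Besides Kars, 6 cytosolic genes were called lower by less than 2-fold. Eprs, a fused enzyme for glutamate and proline, averaged 128 ± 3.71 CPM in the KspCre Tfam f/f-labelled libraries and 235 ± 6.98 CPM in the Tfam f/f-labelled ones (1.83-fold lower, adjusted p = 0.000973). Iars, for isoleucine, was 1.79-fold lower, Nars, for asparagine, 1.73-fold and Yars, for tyrosine, 1.66-fold. Mars, for methionine, was 1.59-fold lower and Tars, for threonine, 1.49-fold. The smallest fold among the 14 was the 1.43 of Kars. All 14 calls were kept under each of the 16 alternatives tried. Of the 50-base stretches of Iars transcripts, 7.15% also occur in other genes, mainly Gm4849, and of those of Aars 13.8%, mainly Exosc6, so their counts are less certain. Mars shares 68 exon bases with Ddit3 on the opposite strand, and Ddit3 averaged 9.91 CPM in the KspCre Tfam f/f-labelled libraries against 114.3 CPM in the Tfam f/f-labelled ones. The library kit marks strand; how the counting treated strand is not given in the sources used here.

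Dars and Farsb were called in the other direction, which total counts without scaling factors turned to -0.0036 and -0.19 on the log2 scale. Dars, the aspartyl enzyme of the cytosol, had 108, 107 and 105 CPM in the KspCre Tfam f/f-labelled libraries and 75.2, 94.3 and 70.5 CPM in the Tfam f/f-labelled ones. The groups did not overlap and the level was 1.33-fold higher (log2 0.42, SE 0.12, adjusted p = 0.0276). This call was lost without replicate 1, 2 or 3 labelled KspCre Tfam f/f (adjusted p = 0.0885, 0.0847 and 0.0785) and without replicate 1 labelled Tfam f/f (adjusted p = 0.0883), in a range over all alternatives of 0.00205 to 0.98. Farsb, the beta subunit of the phenylalanyl enzyme, had 54.7, 60.5 and 58.3 CPM in the KspCre Tfam f/f-labelled libraries, against 50.7, 49.1 and 47.6 CPM in the Tfam f/f-labelled ones, 1.18-fold higher (log2 0.24, SE 0.08, adjusted p = 0.0487). Its call was lost without replicate 1, 2 or 3 labelled KspCre Tfam f/f (adjusted p = 0.0836, 0.176 and 0.147) and without replicate 1 or 3 labelled Tfam f/f (0.0507 and 0.0772). Of the 50-base stretches of Farsb transcripts, 7.27% also occur in other genes, mainly Sgpp2, so its counts are less certain. Over all alternatives the adjusted p of Farsb lay between 0.0388 and 0.176. Farsa, the alpha subunit of the same enzyme, was not called (log2 -0.16, 95% interval -0.38 to 0.05, adjusted p = 0.178).

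Among the 4 cytosolic genes that were not called, Rars, for arginine, had 56.6, 58.4 and 57.0 CPM in the KspCre Tfam f/f-labelled libraries and 71.1, 56.7 and 74.7 CPM in the Tfam f/f-labelled ones. The groups overlapped through replicate 2 labelled Tfam f/f, and without that library Rars was called lower (adjusted p = 0.00872). With it the log2 fold change was -0.24, with an interval of -0.50 to 0.03 (adjusted p = 0.130). Hars, for histidine, had an interval of -0.31 to 0.06 around -0.12 (adjusted p = 0.239) and Qars, for glutamine, one of -0.31 to 0.13 around -0.09 (adjusted p = 0.451).

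Several cytosolic synthetases are held in a large multi-synthetase complex with scaffold proteins. Of the 8 members in that complex, 5 were called lower, 1 higher and 2 were not called, with a median log2 fold change of -0.59. Of the 12 outside it, 9 were called lower, 1 higher and 2 were not called, with a median of -0.92, beside 24.9% of all genes tested called lower and 21.3% higher. The difference between the 2 subsets was not tested. The scaffold gene Aimp1 averaged 29.6 ± 0.992 CPM in the KspCre Tfam f/f-labelled libraries and 54.1 ± 7.79 CPM in the Tfam f/f-labelled ones, 1.83-fold lower (adjusted p = 0.0015). Aimp2, a further scaffold, was 1.44-fold lower (adjusted p = 0.0181), and Eef1e1, the third, had a log2 fold change of -0.13 (adjusted p = 0.352). By catalytic fold, class I enzymes counted 8 lower, 3 higher and 8 not called of 19. Class II enzymes counted 7 lower, 4 higher and 6 not called of 17. Each gene was placed in a single class, and the fused Eprs was counted in class I alone. Over all genes tested 24.9% were called lower and 21.3% higher, and no difference between the folds was tested.

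The mitochondrial enzymes did not share the direction of the cytosolic majority. Of the 16 genes, 5 were called higher, 1 lower and 10 were not called, where 21.3% of all genes tested were called higher. Their median log2 fold change was 0.28, with single values between -0.53 and 0.68, but with total counts and no scaling factors it was -0.15, a setting that puts the median of all genes at -0.46. In 8 of the 16 every KspCre Tfam f/f-labelled library was above every Tfam f/f-labelled library, against 29.8% of all genes tested, and in 2 it was below. In all, 6 of the 16 were called in either direction, against 46.2% of all genes tested.

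**Figure D2:**
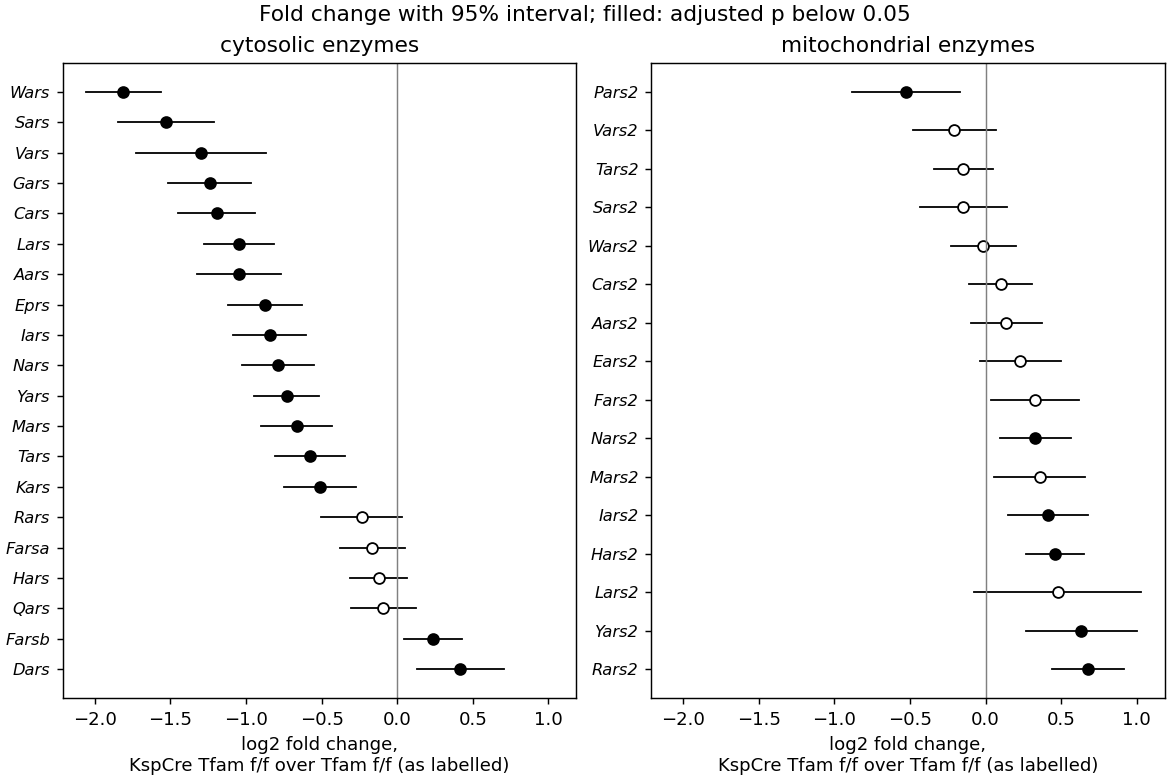
Log2 fold change (KspCre Tfam f/f over Tfam f/f, as labelled) of each of the 36 synthetase genes with its 95% interval from edgeR's fit, cytosolic and mitochondrial enzymes in separate groups. Cytosolic values run from -1.81 for Wars to 0.42 for Dars and mitochondrial values from -0.53 for Pars2 to 0.68 for Rars2; with total counts in place of scaling factors the mitochondrial median of 0.28 turns to -0.15.

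Rars2, the mitochondrial arginyl enzyme, had the smallest p of the class. It had 63.2, 62.4 and 64.3 CPM in the KspCre Tfam f/f-labelled libraries and 36.6, 44.9 and 37.0 CPM in the Tfam f/f-labelled ones. The groups were well apart and the level was 1.60-fold higher (log2 0.68, SE 0.10, adjusted p = 0.00228). Hars2, for histidine, had 47.6, 46.6 and 47.9 CPM in the KspCre Tfam f/f-labelled libraries, against 34.4, 36.4 and 32.4 CPM in the Tfam f/f-labelled ones, 1.38-fold higher (log2 0.46, SE 0.08, adjusted p = 0.00442). These 2 calls were kept in every alternative but total counts without scaling factors, under which Rars2 was at 0.26 (adjusted p = 0.0553) and Hars2 at 0.03 (adjusted p = 0.761) on the log2 scale. The adjusted p over all alternatives lay between 3.27e-06 and 0.0553 for Rars2 and between 0.00016 and 0.761 for Hars2. Rars2 lies on chromosome 4 at 34614957 to 34660167, plus strand.

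Hars and Hars2 stand head to head on chromosome 18, Hars at 36766528 to 36783205 on the minus strand and Hars2 at 36783008 to 36792562 on the plus strand. Their start sites are 197 bases apart and 195 of their exon bases coincide on opposite strands. Hars had 50.4, 50.3 and 51.9 CPM in the KspCre Tfam f/f-labelled libraries and 58.1, 52.9 and 55.1 CPM in the Tfam f/f-labelled ones. So the 2 neighbours, which serve the same amino acid in different compartments, had Hars2 called higher and Hars not called, and the difference between them was not tested beyond the pair ratio.

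Yars2, the mitochondrial tyrosyl enzyme, had 20.3, 22.4 and 19.4 CPM in the KspCre Tfam f/f-labelled libraries and 13.8, 15.6 and 10.45 CPM in the Tfam f/f-labelled ones, 1.55-fold higher (log2 0.63, SE 0.16, adjusted p = 0.0146). Without replicate 2 labelled KspCre Tfam f/f its adjusted p was 0.0617, in a range over alternatives of 0.0028 to 0.212. The groups did not overlap. Iars2, for isoleucine, had 159, 167 and 162 CPM in the KspCre Tfam f/f-labelled libraries and 122, 135 and 109 CPM in the Tfam f/f-labelled ones, 1.33-fold higher (log2 0.41, SE 0.11, adjusted p = 0.0207), again with no overlap. This call was lost without replicate 1, 2 or 3 labelled KspCre Tfam f/f (adjusted p = 0.066, 0.0835 and 0.073) or replicate 1 labelled Tfam f/f (0.0557), in a range of 0.0033 to 0.943, and total counts without scaling factors put Iars2 at -0.0091. Of the Iars2 exon bases, 22.9% lie under Rab3gap2 on the opposite strand, a gene with 37.8 CPM in the KspCre Tfam f/f-labelled libraries and 53.7 CPM in the Tfam f/f-labelled ones.

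Nars2, for asparagine, had 19.5, 21.6 and 18.9 CPM in the KspCre Tfam f/f-labelled libraries and 16.05, 16.1 and 15.6 CPM in the Tfam f/f-labelled ones. Its groups did not overlap, and it was 1.26-fold higher (log2 0.33, SE 0.10, adjusted p = 0.0316). The call was lost without replicate 1, 2 or 3 labelled KspCre Tfam f/f (adjusted p = 0.083, 0.137 and 0.0673) or replicate 1 labelled Tfam f/f (0.051), in a range over alternatives of 0.0208 to 0.501, and total counts without scaling factors put it at -0.10. Pars2, the prolyl enzyme of mitochondria, was the only member of its class called lower. It had 6.18, 5.85 and 5.65 CPM in the KspCre Tfam f/f-labelled libraries and 9.88, 7.80 and 7.81 CPM in the Tfam f/f-labelled ones, 1.44-fold lower (log2 -0.53, SE 0.15, adjusted p = 0.0259). The groups did not overlap, but the call was lost without replicate 1, 2 or 3 labelled KspCre Tfam f/f (adjusted p = 0.0744, 0.0963 and 0.105) or replicate 1 labelled Tfam f/f (0.0724), in a range of 0.0024 to 0.105.

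Of the 10 mitochondrial genes not called, Mars2, for methionine, and Fars2, for phenylalanine, had intervals of 0.06 to 0.66 and 0.03 to 0.62 around log2 fold changes of 0.36 and 0.33 (adjusted p = 0.0542 and 0.0659). Mars2 was called higher without replicate 2 labelled Tfam f/f (adjusted p = 0.00662) and Fars2 without replicate 1 of that label (adjusted p = 0.0343), while total counts without scaling factors put them at -0.06 and -0.09. Of the 50-base stretches of Fars2 transcripts, 8.85% also occur in other genes, mainly Nrn1, so its counts are less certain. Lars2, for leucine, had the largest SE of the 36 members, 0.24. It had 333, 483 and 329 CPM in the KspCre Tfam f/f-labelled libraries and 359, 229 and 235 CPM in the Tfam f/f-labelled ones. The groups overlapped, with an interval of -0.07 to 1.03 around 0.48 (adjusted p = 0.134), and without replicate 1 labelled Tfam f/f Lars2 was called higher (adjusted p = 0.0486). Wars2, the mitochondrial partner of Wars, had 18.8, 18.8 and 18.6 CPM in the KspCre Tfam f/f-labelled libraries and 18.5, 19.8 and 18.5 CPM in the Tfam f/f-labelled ones. Its interval of -0.23 to 0.20 around -0.01 held changes of either sign. The other 6, Ears2, Vars2, Tars2, Aars2, Sars2 and Cars2, had log2 fold changes between -0.21 and 0.23.

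**Figure D3:**
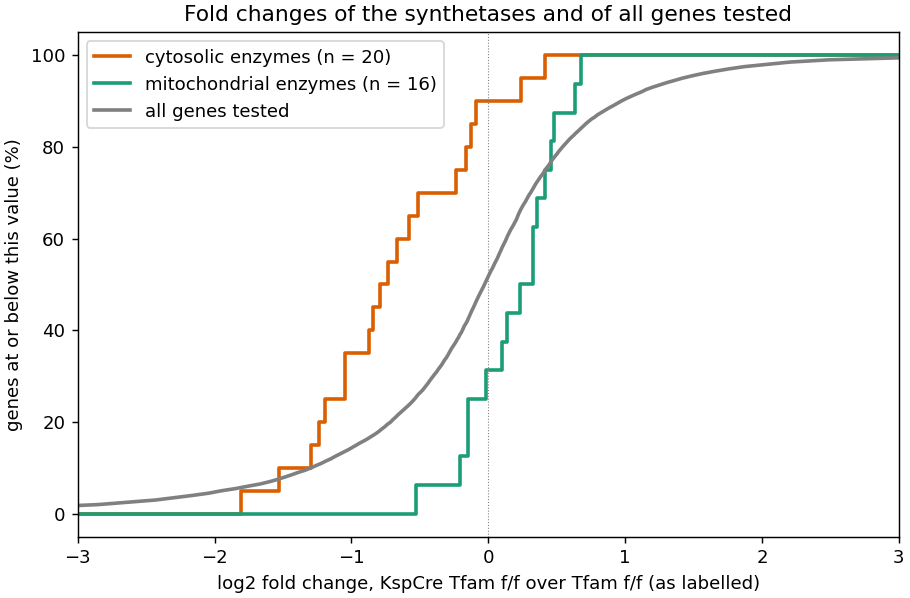
Cumulative share of genes by log2 fold change (KspCre Tfam f/f over Tfam f/f, as labelled) for the cytosolic enzymes, the mitochondrial enzymes and all 17308 genes tested. The cytosolic curve lies to the left of that of all genes over most of its length (medians -0.76 and -0.03) and the mitochondrial median is 0.28, which turns to -0.15 with total counts in place of scaling factors.

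The contrast of the compartments was next taken inside each library, where scaling cancels. For 17 pairs of a cytosolic and a mitochondrial enzyme of the same amino acid, the ratio of CPM per kilobase of exon was computed, with Eprs and Fars2 each entering 2 pairs. In 16 of the 17 pairs the ratio in every KspCre Tfam f/f-labelled library was below that in every Tfam f/f-labelled library, and in 0 it was above. Among single genes 32.1% had no overlap with the KspCre Tfam f/f-labelled libraries below and 29.8% with them above; no such share was computed over other gene pairs. The mean log2 ratio was lower in all 17. With 3 libraries against 3 the two-sided exact permutation test cannot go below p = 0.1, which 16 pairs reached (0.106 after adjustment over the 17), and Farsb with Fars2, whose groups overlapped, had an exact p of 0.7.

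**Figure D4:**
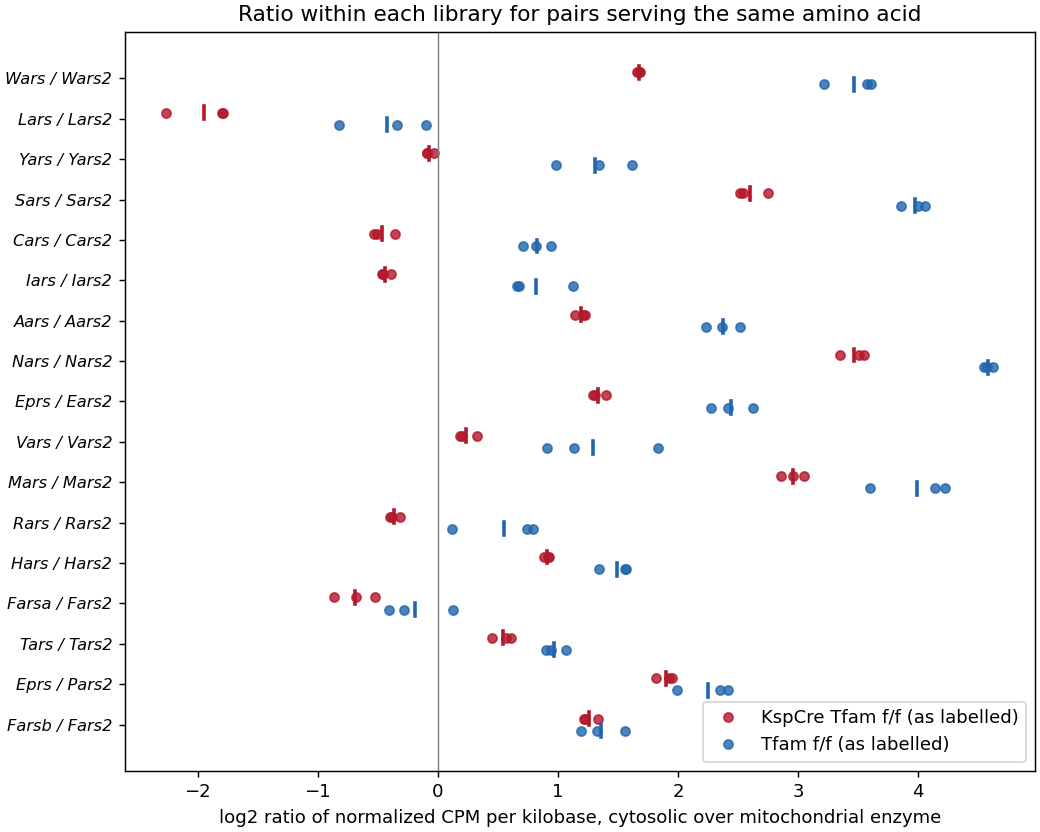
Log2 ratio of the cytosolic over the mitochondrial enzyme of the same amino acid, in CPM per kilobase of exon, for 17 pairs, with a point per library and KspCre Tfam f/f-labelled libraries set beside the Tfam f/f-labelled ones. In 16 pairs all 3 KspCre Tfam f/f-labelled libraries lie below all 3 labelled Tfam f/f, and Farsb with Fars2 overlaps.

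The tryptophan pair differed most. The log2 ratio of Wars over Wars2 was 1.66, 1.68 and 1.69 in the KspCre Tfam f/f-labelled libraries and 3.58, 3.22 and 3.61 in the Tfam f/f-labelled ones, which is a mean ratio of 3.19 in the KspCre Tfam f/f-labelled libraries and 11.1 in the Tfam f/f-labelled ones. For tyrosine, Yars over Yars2 gave log2 ratios of -0.09, -0.09 and -0.04 in the KspCre Tfam f/f-labelled libraries and 1.34, 0.98 and 1.61 in the Tfam f/f-labelled ones. The balance thus lay slightly toward the mitochondrial gene in the KspCre Tfam f/f-labelled libraries and toward the cytosolic gene in the Tfam f/f-labelled ones. In 4 pairs, those of Cars, Iars, Rars and Yars, the mean ratio was below 1 in the KspCre Tfam f/f-labelled libraries and above 1 in the Tfam f/f-labelled ones. Lars over Lars2 stayed below 1 in both, with 0.259 in the KspCre Tfam f/f-labelled libraries and 0.748 in the Tfam f/f-labelled ones. Sars over Sars2 was 6.06 in the KspCre Tfam f/f-labelled libraries and 15.7 in the Tfam f/f-labelled ones, and Nars over Nars2 was 11.1 in the KspCre Tfam f/f-labelled libraries and 24.0 in the Tfam f/f-labelled ones. The smallest difference was that of Farsb over Fars2, at 2.39 in the KspCre Tfam f/f-labelled libraries and 2.57 in the Tfam f/f-labelled ones. Eprs differed by -1.11 in log2 ratio against Ears2 and by -0.35 against Pars2, the mitochondrial member called lower.

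Summed over each class, the cytosolic genes had 284, 295 and 289.7 CPM per kilobase in the KspCre Tfam f/f-labelled libraries and 502, 447 and 507 in the Tfam f/f-labelled ones. The mitochondrial genes had 133, 151 and 134 CPM per kilobase in the KspCre Tfam f/f-labelled libraries and 119.95, 109.5 and 100.8 in the Tfam f/f-labelled ones. The ratio of the 2 sums was 2.13, 1.95 and 2.16 in the KspCre Tfam f/f-labelled libraries and 4.18, 4.08 and 5.03 in the Tfam f/f-labelled ones, with no overlap.

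The order of levels among the 36 genes also differed between the groups. Per kilobase, Sars was 4th in the KspCre Tfam f/f-labelled libraries at 23.4 and 1st in the Tfam f/f-labelled ones at 67.6. Wars was 17th at 10.1 in the KspCre Tfam f/f-labelled libraries and 4th at 35.3 in the Tfam f/f-labelled ones. Lars2 was 1st at 34.4 in the KspCre Tfam f/f-labelled libraries and 5th at 24.7 in the Tfam f/f-labelled ones, and its spread covers the gap to Nars, at 31.7 there. In the KspCre Tfam f/f-labelled libraries, Dars was 3rd at 24.5 and Rars2 5th at 22.8, whereas in the Tfam f/f-labelled ones Dars was 13th at 18.4 and Rars2 17th at 14.3. Mars2 was 36th in both, at 1.65 in the KspCre Tfam f/f-labelled libraries and 1.29 in the Tfam f/f-labelled ones. Lengths are the union of all annotated exons, which understates the level of genes whose transcripts cover only part of that union. The longest unions among the 36 are those of Eprs (18102 bases), Mars2 (11294 bases in a single block) and Lars2 (11089 bases).

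**Figure D5:**
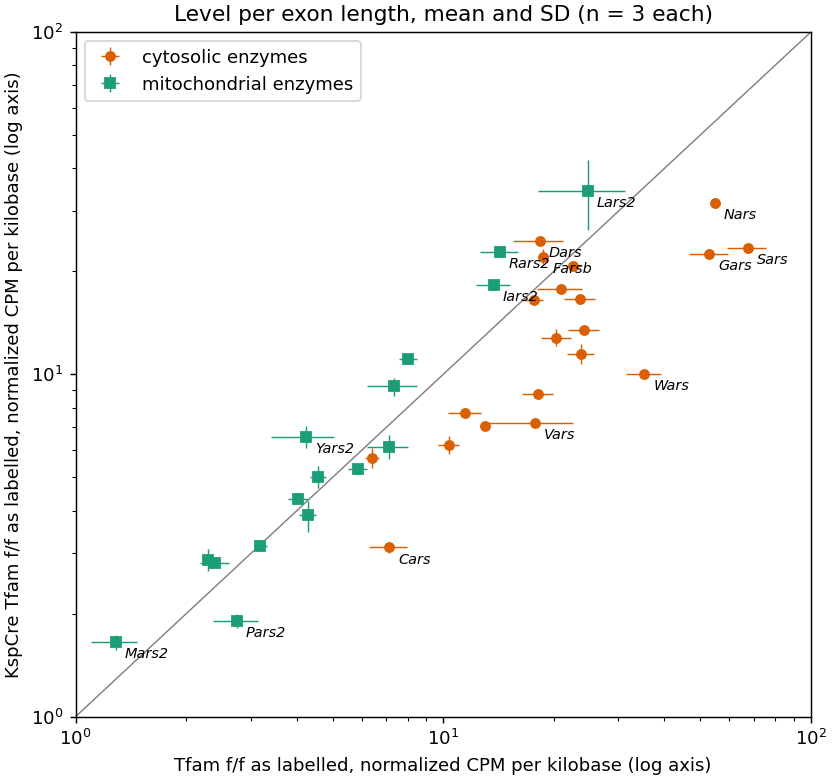
Level of each synthetase gene in normalized CPM per kilobase of exon on a log axis, as the mean and SD of the 3 KspCre Tfam f/f-labelled libraries beside the 3 labelled Tfam f/f. Sars, Nars and Gars have the highest means in the Tfam f/f-labelled libraries, and Lars2, Nars and Dars in the KspCre Tfam f/f-labelled ones.

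The Tfam f/f-labelled libraries were not alike. Replicate 2 of that label was nearest to the mean of the KspCre Tfam f/f-labelled libraries in 11 of the 14 cytosolic genes called lower and in 5 of the 5 mitochondrial genes called higher. The same replicate was nearest in 73.1% of all genes called lower and 73.9% of all genes called higher. Replicate 1 was nearest in the other 3 cytosolic genes, and replicate 3 in 0 of them. Replicate 2 also had the lowest sum of tubular injury markers among the Tfam f/f-labelled libraries, 3082 CPM against 5904 and 13163 CPM in the other two, and the highest share of mitochondrially encoded mRNAs, 5.67%. The part of these differences in the synthetase values was not tested.

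The 5 cytosolic genes with a C/EBP-ATF core in their window, Aars, Gars, Iars, Tars and Yars, were all called lower, with a median log2 fold change of -0.84. The 8 with a window and no core, among them Sars, Dars and Farsb, had 4 called lower, 2 higher and 2 not called. Their median was -0.34. Of all 20 cytosolic genes 14 were called lower, and of all genes tested 24.9% were called lower and 21.3% higher. Wars, Cars and Lars had no window. These are counts beside a sequence and no test was made of them.

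Genes of the same pathways were read from lists of related functions. Of 14 further genes of tRNA charging, 6 were called higher, 3 lower and 5 were not called, with a median of 0.10, beside 21.3% of all genes tested called higher and 24.9% lower. The 3 subunits of the enzyme that makes mitochondrial glutaminyl-tRNA did not share a direction. Gatb was 2.34-fold higher (adjusted p = 0.00658) and Gatc 1.20-fold higher (adjusted p = 0.0361), while Qrsl1 was 1.37-fold lower (adjusted p = 0.00718). Sepsecs, which completes selenocysteine tRNA, was 2.24-fold higher (adjusted p = 0.00664). Of 16 genes of tRNA maturation and export, 2 were called higher, 4 lower and 10 were not called, beside 21.3% of all genes tested called higher and 24.9% lower, so that the share lower was that of the background and the share higher was below it. Trmt1, a tRNA methyltransferase, was 1.60-fold lower (adjusted p = 0.00506), Gtpbp3, which modifies mitochondrial tRNAs, 1.46-fold (adjusted p = 0.0053) and the tRNA exporter Xpot 1.39-fold (adjusted p = 0.00604). Mto1, the partner of Gtpbp3, was 1.84-fold higher (adjusted p = 0.00621). Of 10 tested factors of mitochondrial translation, 5 were called higher, 0 lower and 5 were not called, against 21.3% of all genes tested called higher. The elongation factors Gfm2 and Gfm1 were 1.70-fold (adjusted p = 0.00225) and 1.66-fold higher (adjusted p = 0.00442), and the initiation factor Mtif3 was 1.47-fold higher (adjusted p = 0.0101).

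Genes of the ATF4 program were lower together with the cytosolic enzymes. Of 25 such genes outside the synthetases, 22 were called lower, 1 higher and 2 were not called, with a median log2 fold change of -3.53, against 24.9% of all genes tested called lower. Atf4 itself averaged 88.3 ± 5.95 CPM in the KspCre Tfam f/f-labelled libraries and 221 ± 22.2 CPM in the Tfam f/f-labelled ones (log2 -1.33, adjusted p = 0.0003). Mthfd2, a mitochondrial folate enzyme, was 19.0-fold lower, with 3.15 ± 0.418 CPM in the KspCre Tfam f/f-labelled libraries and 60.0 ± 3.32 CPM in the Tfam f/f-labelled ones (adjusted p = 5.77e-06). Atf5, a related transcription factor, was 17.0-fold lower and Nupr1, a stress-induced chromatin protein, had a log2 fold change of -4.42. The folds of the synthetase genes, 3.51 at most, were smaller than those of Mthfd2, Atf5 and Nupr1, the 3 genes of the list with the lowest p. Atf4, at 2.51-fold lower, lay within the range of the synthetase genes. Of the 22 genes of the list called lower, 18 were at least 2-fold lower, and 13.2% of all genes tested were called and that much lower. Of 7 genes of uncharged tRNA sensing and eIF2 phosphorylation, Ppp1r15a, a phosphatase subunit, was 4.48-fold lower (adjusted p = 0.001035), Ppp1r15b, its constitutive relative, was 1.41-fold higher (adjusted p = 0.0183) and 5 were not called. That is 14.3% of the list called lower and 14.3% higher, below the 24.9% lower and 21.3% higher over all genes tested. In all, 28.6% of the list was called, against 46.2% of all genes tested. Eif2ak4, which encodes GCN2, had a log2 fold change of -0.22 (adjusted p = 0.0909).

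Markers of cells and tissue state moved with these groups, and their part in the synthetase values was not tested. The 9 proximal tubule markers were all called higher and summed to 44126 to 46083 CPM in the KspCre Tfam f/f-labelled libraries and 3376 to 13942 CPM in the Tfam f/f-labelled ones. The 8 tubular injury markers summed to 821 to 883 CPM in the KspCre Tfam f/f-labelled libraries and 3082 to 13163 CPM in the Tfam f/f-labelled ones. Of 9 macrophage markers 8 were called lower and 1 was not called, with sums of 245 to 296 CPM in the KspCre Tfam f/f-labelled libraries and 402 to 1299.9 CPM in the Tfam f/f-labelled ones. All 6 proliferation genes were called lower, with sums of 17.95 to 22.9 CPM in the KspCre Tfam f/f-labelled libraries and 99.6 to 142 CPM in the Tfam f/f-labelled ones. Of 7 distal nephron markers 4 were called higher and 3 were not called. Beside the counts of these marker lists, 21.3% of all genes tested were called higher and 24.9% lower. Lymphocyte markers summed to at most 7.30 CPM in the KspCre Tfam f/f-labelled libraries and 20.1 CPM in the Tfam f/f-labelled ones. The 5 adrenal markers summed to 1.30 to 1.97 CPM in the KspCre Tfam f/f-labelled libraries and 1.91 to 2.39 CPM in the Tfam f/f-labelled ones. Among them, Cyp11b1 and Cyp11b2 were at 0 counts in all 6 libraries.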

How the data were processed

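The deposited files hold counts of reads per gene, as the authors made them; the submitters' processing notes name HTSeq 0.11.0, STAR 2.4.1d, Trim Galore and FastQC and the build mm10, with no roles or order. Per the labels' protocols the libraries were strand-specific and poly A+ selected. Neither the annotation release nor how HTSeq treated strand is stated in the sources used here. Summary lines that name no gene, 16.0% to 20.4% of each table, were left out. Gene positions came from GENCODE M21 (GRCm38), in which 54079 of 54146 identifiers were found once version numbers were left out.

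The test was edgeR 4.0.16 under R 4.3.3. Genes passed filterByExpr at a minimum count of 10 and a minimum total of 15, libraries were scaled by TMM, and the robust quasi-likelihood test compared the 2 labelled groups over 17308 genes, with Benjamini-Hochberg adjustment and a threshold of 0.05. The SE is the log2 fold change divided by the square root of F. The pair ratios were compared with exact permutation tests in SciPy 1.17.1. DESeq2 1.42.0, limma 3.58.1 and the other settings listed at the end were alternatives. No 2 libraries of a group agreed within sampling noise.

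The members and gene lists were chosen with earlier results of these data known. Values in every library are given for the 6 members of each class with the smallest p, for Tfam, Gars, Kars, Wars, Hars and Hars2, and for called members opposite to their class; Vars, Rars, Lars2 and Wars2 were added after their values were seen. From the other gene lists the rule took those with the lowest p among called genes, at most 3 a list, and Aimp2, Eef1e1, Gatc, Qrsl1, Mto1, Atf4 and Eif2ak4 were added after their values were seen. Cell type markers are given as sums. Counting error is small at these depths, and the number of libraries limits the precision. Some results are not reported here.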

Additional observations from a re-analysis of the deposited data

How the results depend on the processing

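The counts of pairs with separate groups, 16 lower and 0 higher, held when 0.5 counts were added and without each library. The 14 cytosolic calls of lower also held: total counts gave 18, the replicate block 14, and leaving out a library 14 to 15. The cytosolic count of higher, 2, was 1 with limma voom, with a mean of at least 50 counts, without a filter, with thinned counts, with upper quartile factors and with the replicate block, 0 with total counts, and 0 to 2 without a library. The mitochondrial count of higher, 5, was 3 with the replicate block, 0 with total counts and 2 to 6 without a library; that of lower, 1, was 0 with the block and with thinned counts, 6 with total counts and 0 to 1 without a library.

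Over all genes, total counts without scaling factors gave 1680 higher and 8519 lower in place of 3690 and 4310, so the scaling sets that split. Leaving out a library gave 2276 to 4652 higher and 2822 to 4942 lower. Total counts moved the median log2 fold change of all genes to -0.46, of cytosolic genes to -1.19 and of mitochondrial genes to -0.15; with upper quartile factors the mitochondrial median was 0.20 and that of all genes -0.10. Without a library the medians were -0.78 to -0.72 for cytosolic and 0.22 to 0.30 for mitochondrial genes. Of 576 values of single members under 16 alternatives each, 511 kept direction and call, 38 lost the call, 14 gained it and 13 turned direction. With total counts these were Dars (-0.0036), Farsb (-0.19), Aars2 (-0.29), Cars2 (-0.33), Ears2 (-0.20), Fars2 (-0.0939), Iars2 (-0.0091), Mars2 (-0.0636) and Nars2 (-0.10). Wars2 turned to 0.0073 with DESeq2 size factors, 0.0066 with DESeq2 and 0.0037 without replicate 3 labelled KspCre Tfam f/f, and ran from -0.0333 to 0.0433 without a library, the highest without replicate 2 labelled Tfam f/f. The cause was not tested.

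The labels give the groups the same replicate numbers, but the same-numbered libraries did not deviate together (correlations -0.174, -0.070 and -0.071). These are deviations from means of 3 libraries, so they cannot settle whether same-numbered libraries share more than a number. With the replicate block, 3227 genes were called higher and 3586 lower.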
